A study of Mus musculus with 9 samples.

Results

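The Schlafen genes are a mouse family that encodes proteins with a shared amino-terminal core, named after the German word for sleep because early members slowed the growth of T cells. They are usually sorted by length into short (Slfn1, Slfn2), intermediate (Slfn3, Slfn4) and long forms (Slfn5, Slfn8, Slfn9), and only the long forms carry a helicase-like region at the carboxyl end. Type I interferon is known to induce several of them in myeloid cells: it binds the receptor IFNAR, factors that include STAT2 and IRF9 then act at interferon-stimulated response elements in promoters, and the genes next to these elements are transcribed. The 7 members described here were picked by gene symbol in the array annotation, and they are 7 of 19938 genes measured. Each was read by a single transcript cluster of its own.

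The arrays were made from circulating monocytes of tumor-free mice on the Balb/cJ background, aged 14 to 18 weeks, and 3 genotypes were compared: wild type, Ccl2-/- and Ccr2-/- (the ligand CCL2 or its receptor CCR2 deleted in the germline, in every cell type). There were 3 Affymetrix Mouse Gene 1.0 ST arrays per genotype, 9 in all, each with RNA of 5 pooled mice. The cells were enriched on magnetic columns by removing cells that carry B220, CCR3, CD8, CD4, MHC class II or Ly-6G and then keeping those that carry CD11b, so other cells that carry CD11b, such as NK cells, could remain on the columns. The study defined monocytes as negative for NK1.1 and CD11c as well, but its column antibodies did not include either. On the wild type arrays a list of NK cell genes averaged 11.87 on the log2 scale, beside 12.27 for a list of monocyte and macrophage genes. The samples are called monocytes here as in the study, and each level is that of the whole enriched fraction. The question was how far the monocytes of each knockout depart from wild type.

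All Schlafen members stand together on chromosome 11, which also holds the deleted Ccl2 gene: in RefSeq order they run Slfn5, Slfn9, Slfn8, Slfn10-ps, Slfn2, Slfn1, Slfn4 and Slfn3, and this block lies between Ccl2 and Ccl4. Stretches before the transcription start of each member are shown to set the short and intermediate forms beside the long forms. Capitals mark either the core of an interferon-stimulated response element (the letters GAAA, any 2 bases and GAAA again, searched on both strands) or a run of 9 bases, ACTTCCTGG, which is the longest run of letters that the 250 bases before the starts of Slfn1, Slfn2, Slfn3 and Slfn4 share. The sequences are 5′ to 3′ on the gene's own strand, from RefSeq on GRCm38.p6, which is a C57BL/6J genome and not that of Balb/c mice. The short and intermediate forms come first, from 150 to 31 bases before the start:
Slfn1 (chr11:83116670-83116789, plus strand): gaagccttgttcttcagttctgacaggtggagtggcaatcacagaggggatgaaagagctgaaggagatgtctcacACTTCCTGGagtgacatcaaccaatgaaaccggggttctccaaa
Slfn2 (chr11:83064962-83065081, plus strand): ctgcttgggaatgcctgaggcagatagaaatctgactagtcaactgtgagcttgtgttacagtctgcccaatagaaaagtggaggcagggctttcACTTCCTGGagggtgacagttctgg
Slfn3 (chr11:83191180-83191299, plus strand): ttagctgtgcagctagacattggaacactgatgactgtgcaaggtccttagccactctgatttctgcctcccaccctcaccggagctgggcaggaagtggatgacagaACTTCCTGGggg
Slfn4 (chr11:83175036-83175155, plus strand): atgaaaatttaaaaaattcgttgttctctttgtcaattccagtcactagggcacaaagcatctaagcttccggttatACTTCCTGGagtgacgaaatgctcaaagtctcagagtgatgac
The long forms follow, from 180 to 61 bases before the start for Slfn5 and from 150 to 31 bases for Slfn8 and Slfn9:
Slfn5 (chr11:82951922-82952041, plus strand): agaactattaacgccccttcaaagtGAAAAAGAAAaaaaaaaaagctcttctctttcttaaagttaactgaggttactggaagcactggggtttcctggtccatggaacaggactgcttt
Slfn8 (chr11:83020841-83020960, minus strand): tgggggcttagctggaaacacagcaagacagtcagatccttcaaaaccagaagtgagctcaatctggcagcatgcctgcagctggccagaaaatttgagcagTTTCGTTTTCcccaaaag
Slfn9 (chr11:82991861-82991980, minus strand): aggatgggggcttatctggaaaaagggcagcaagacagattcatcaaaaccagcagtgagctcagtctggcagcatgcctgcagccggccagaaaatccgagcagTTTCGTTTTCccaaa

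The run ACTTCCTGG began 74 bases before the start of Slfn1, 55 before Slfn2, 42 before Slfn3 and 73 before Slfn4, on the same strand as the gene each time, and it was absent from the 250 bases before Slfn5, Slfn8 and Slfn9. It holds, on the opposite strand, the letters GGAA that ETS-family factors such as the myeloid factor PU.1 recognise. Among all 32851 RefSeq promoter windows of this length, 0.7% held it on either strand. The run was found by comparing the windows of those 4, grouped beforehand as short and intermediate forms, so its presence there is a description. Its absence from the long forms is likely for any run this rare.

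The response element core lay in the windows of the 3 long forms measured and of no short or intermediate form measured. Slfn14, another long form, was not analysed here. In Slfn5 it began 155 bases before the start, on the gene's strand and inside a stretch rich in A. In Slfn8 and Slfn9 it lay on the opposite strand, 48 and 45 bases before the start, within the same letters TTTCGTTTTC. Of all promoter windows 2.98% held the core. Counted by gene, 3.46% of all genes and 14 of the 35 listed interferon-stimulated genes with a RefSeq promoter (40%) held it in at least 1 window. The windows of Slfn8 and Slfn9 were 80.2% identical when aligned, against 45.5 to 53.4% for the other 20 pairs of members. No match says only that these letters are not in these windows, and a match shows no binding.

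Of the 7 members, 5 fell in Ccr2-/- monocytes compared to wild type (limma, adjusted p under 0.05), which are both short forms, both intermediate forms and the long form Slfn5. None of the members rose. Slfn8 and Slfn9 did not pass, nor did the neighbouring pseudogene Slfn10-ps, although each had a negative log2 change. Over all 19938 genes 8.38% fell and 4.91% rose in this comparison. The median log2 change was -1.03 over the 7 members and 0.01 over all genes. The study's methods named limits of size and no test, a ratio over 1.2 and a difference over 100 in linear intensity. Applied here to the genotype means, these took in 6 of 7 members as lower, against 9.21% of all genes. In Ccl2-/- monocytes the limits took in more genes here than the study reported, so they do not reproduce its calls. Fewer cells of a kind and less RNA per cell cannot be told apart in such bulk samples.

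Slfn1, a short form first described as a brake on T cell growth, had log2 intensities of 11.81, 11.94 and 11.89 on the wild type arrays, 11.61, 11.33 and 11.75 on the Ccl2-/- arrays and 10.96, 10.76 and 10.39 on the Ccr2-/- arrays. The genotypes did not overlap, and the Ccr2-/- arrays were lowest. It fell to 0.443-fold of wild type in Ccr2-/- monocytes (log2 change -1.17, standard error 0.15, limma adjusted p = 0.00162).
Slfn2, the other short form, which keeps T cells and monocytes in quiescence, read 12.07, 12.13 and 12.11 in wild type, 12.00, 11.98 and 12.02 in Ccl2-/- and 11.47, 11.46 and 11.59 in Ccr2-/- monocytes. It was the steadiest member, with an SD of 0.02 to 0.07 within a genotype (n = 3 arrays), and again the genotypes did not overlap. It fell to 0.661-fold (log2 change -0.60, standard error 0.06, adjusted p = 0.00083), a smaller change than those of the other called members.

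The intermediate forms changed about as much as Slfn1. Slfn3 read 9.99, 9.99 and 10.21 in wild type, 9.38, 9.50 and 10.06 in Ccl2-/- and 9.11, 8.94 and 9.06 in Ccr2-/- monocytes. It fell to 0.49-fold in the latter (log2 change -1.03, standard error 0.17, limma adjusted p = 0.00424). Slfn4, which interferon and Toll-like receptor ligands induce in macrophages, read 10.73, 10.77 and 10.68 in wild type, 10.44, 10.16 and 10.86 in Ccl2-/- and 9.26, 9.39 and 9.50 in Ccr2-/- monocytes. It fell to 0.394-fold (log2 change -1.35, standard error 0.16, adjusted p = 0.00113). For both genes the Ccr2-/- arrays lay below all others, and the Ccl2-/- arrays overlapped with wild type because replicate 3 read as high as wild type.

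The long forms split. Slfn5, an interferon-induced long form, read 12.37, 12.39 and 12.50 in wild type, 11.90, 11.91 and 12.28 in Ccl2-/- and 11.07, 11.13 and 10.96 in Ccr2-/- monocytes, without overlap between genotypes. It fell to 0.388-fold in Ccr2-/- monocytes (log2 change -1.37, standard error 0.11, limma adjusted p = 0.000496), and 39 genes of 19938 had a smaller p. Slfn8 read 11.28, 11.35 and 11.45 in wild type, 10.42, 10.61 and 10.96 in Ccl2-/- and 11.23, 11.08 and 10.94 in Ccr2-/- monocytes. Its order of genotypes was unlike that of the other members, with Ccl2-/- lowest. The ratio of Ccr2-/- to wild type was 0.826 (95% interval 0.664 to 1.03, adjusted p = 0.293).

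Slfn9 read 9.24, 9.36 and 9.41 in wild type, 9.24, 9.90 and 10.13 in Ccl2-/- and 9.26, 9.04 and 9.005 in Ccr2-/- monocytes. It had the widest spread of the members on the Ccl2-/- arrays (SD 0.47), but not in the other genotypes. Its wild type and Ccr2-/- arrays overlapped (0.852-fold, 95% interval 0.617 to 1.18, limma adjusted p = 0.653). Slfn10-ps averaged 10.88 ± 0.11 on the wild type arrays, 10.61 ± 0.15 on the Ccl2-/- arrays and 10.68 ± 0.15 on the Ccr2-/- arrays (SD, n = 3 each), and the antisense transcript Slfn5os had a log2 change of -0.20 in Ccr2-/- monocytes (adjusted p = 0.364). Slfnl1, a Schlafen-like gene on another chromosome, had a log2 change of 0.05 (adjusted p = 0.913). Whether probes of the most alike members, such as Slfn8, Slfn9 and Slfn10-ps, read each other's transcripts is stated in no source used here, so their separate levels are uncertain.

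**Figure D1:**
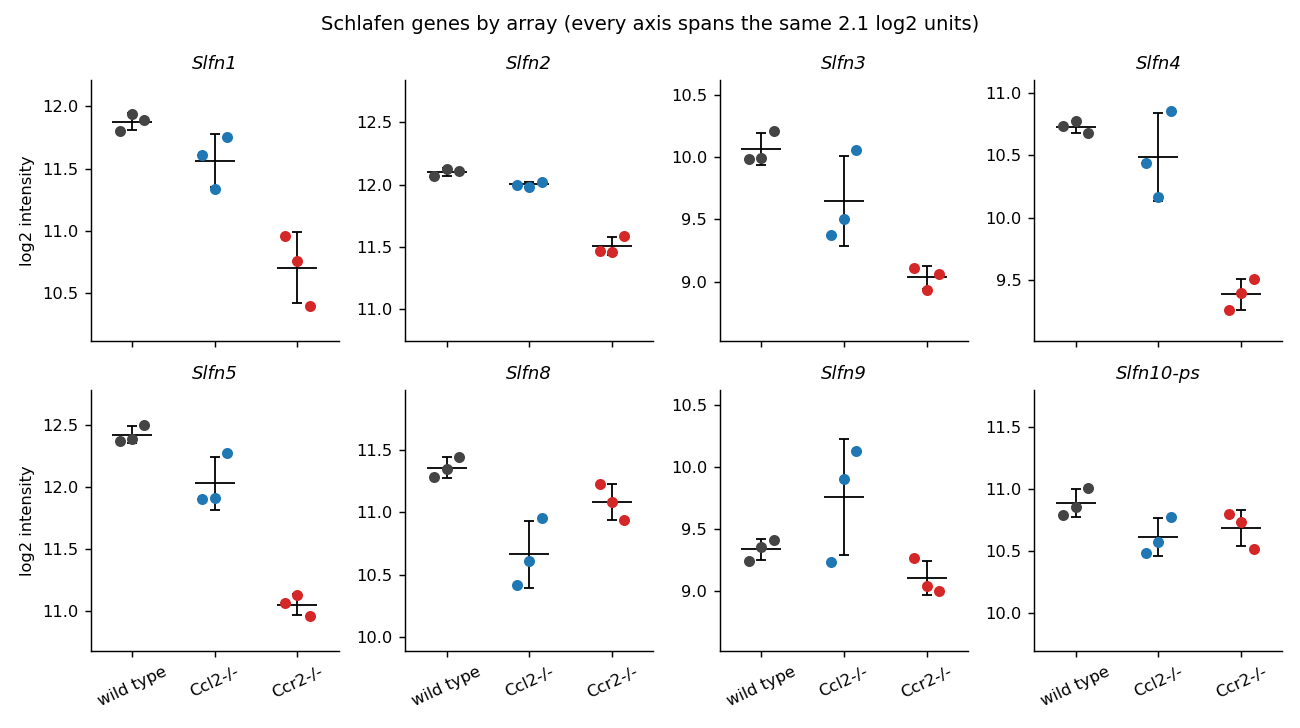
Log2 intensity of the 7 members and of Slfn10-ps on each of 9 arrays (points; 3 per genotype, replicates 1 to 3 from left to right), with the mean and SD of each genotype as bars; every vertical axis spans the same range but starts at another level. Slfn1, Slfn2, Slfn3, Slfn4 and Slfn5 are lowest in Ccr2-/- monocytes, Slfn8 has its lowest mean in Ccl2-/- monocytes (10.66), and Slfn9 its highest there (9.76).

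In Ccl2-/- monocytes no member passed the test (limma), and 3 were lower at an unadjusted p under 0.05, Slfn3, Slfn5 and Slfn8, against 6.32% of all genes. The test called few genes at all in this comparison after adjustment, with 0.0853% of genes lower and 0.0752% higher. The limits of size took in 4 members as lower (Slfn1, Slfn3, Slfn5 and Slfn8) and Slfn9 as higher, against 3.76% of all genes lower and 7.84% higher. Among the members with a negative change Slfn8 had the largest, at 0.617-fold of wild type (log2 change -0.70, standard error 0.14, adjusted p = 0.09), followed by Slfn3 at 0.749-fold (adjusted p = 0.343) and Slfn5 at 0.763-fold (adjusted p = 0.192). Slfn1 was 0.804-fold (adjusted p = 0.428), Slfn4 0.846-fold (adjusted p = 0.506) and Slfn2 0.932-fold (adjusted p = 0.489) of wild type. Slfn9 was 1.34-fold (95% interval 0.97 to 1.85, adjusted p = 0.423), and its log2 change of 0.42 was 0.68 without Ccl2-/- replicate 1 (adjusted p = 0.0626) and 0.24 without replicate 3. The median log2 change was -0.31 over the members and 0.08 over all genes. Centring each array on its median lowered every log2 change in this comparison by 0.12, which reversed no member's direction.

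The calls in Ccl2-/- monocytes changed with a single pool and with the variance model. Replicate 3 was the highest of the Ccl2-/- arrays for all 7 members, by 0.02 (Slfn2) to 0.41 (Slfn3) on the log2 scale above the genotype's mean. Without it Slfn8 passed at a log2 change of -0.84 (limma adjusted p = 0.0165), Slfn5 at -0.51 (adjusted p = 0.0265) and Slfn3 at -0.62 (adjusted p = 0.0291). With any other array left out no member passed. With all arrays and an intensity trend in the variances Slfn8 passed (adjusted p = 0.0268). Without replicate 2 the log2 change of Slfn4 was -0.08 and that of Slfn1 -0.20, and without replicate 3 that of Slfn4 was -0.43. Replicate 1 of Ccl2-/- stands apart in another way, with a median intensity of 430.8 against 324.1 to 355.1 on the other arrays, and it was the lowest Ccl2-/- array for Slfn3, Slfn5, Slfn8 and Slfn9.

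**Figure D2:**
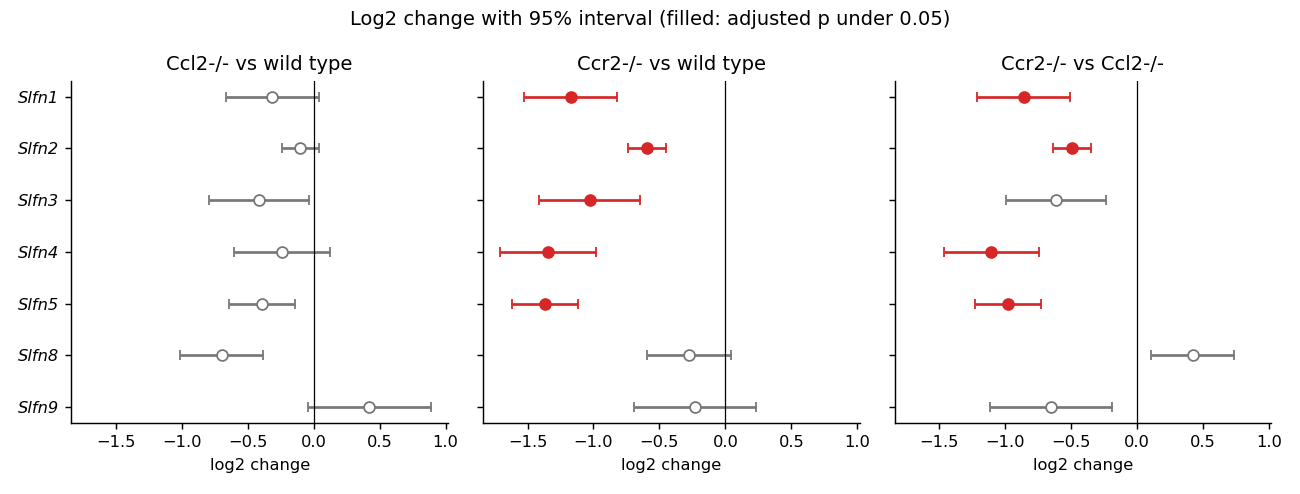
Log2 change of the 7 members with its 95% interval in each comparison (limma on all 9 arrays; filled red points have an adjusted p under 0.05). The called members are Slfn1, Slfn2, Slfn3, Slfn4 and Slfn5 in Ccr2-/- against wild type and the same genes without Slfn3 in Ccr2-/- against Ccl2-/-; none is filled in Ccl2-/- against wild type.

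Ccr2-/- monocytes were also compared directly with Ccl2-/- monocytes. Of the 7 members, 4 were lower in Ccr2-/-: Slfn5 at 0.508-fold (limma adjusted p = 0.00906), Slfn2 at 0.709-fold (0.013), Slfn4 at 0.465-fold (0.0159) and Slfn1 at 0.551-fold (0.0264). Over all genes 2.87% were lower and 0.732% higher. Slfn3 was 0.654-fold (adjusted p = 0.0906) and Slfn9 0.636-fold (adjusted p = 0.13). Slfn8 alone had a positive log2 change, 0.42 (standard error 0.14, 95% interval 0.11 to 0.74, adjusted p = 0.147). None of these calls remained without Ccr2-/- replicate 1, without Ccr2-/- replicate 2 or in a fit of the 6 arrays compared (adjusted p 0.0586 to 0.121). Slfn1 also missed the threshold without Ccr2-/- replicate 3, without Ccl2-/- replicate 3 or without any single wild type array (adjusted p 0.0534 to 0.0735), and centring each array on its median ended the calls of Slfn1 (0.0544) and Slfn2 (0.123). The log2 change of Slfn3, -0.61, was -0.41 without Ccl2-/- replicate 3. Without Ccl2-/- replicate 1, Slfn9 (log2 change -0.91, adjusted p = 0.00698) and Slfn3 (-0.75, adjusted p = 0.0295) passed as well, which made 6.

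Whole arrays can be set apart without a test. Every Ccr2-/- array lay below every wild type array for 6 of 7 members, all but Slfn9, against 18.1% of all genes. Every Ccl2-/- array lay below every wild type array for 4 of 7 members (Slfn1, Slfn2, Slfn5 and Slfn8), against 9.31% of all genes. For the 5 members that fell in Ccr2-/- monocytes every Ccr2-/- array also lay below every Ccl2-/- array, against 16% of all genes. From the highest genotype to the lowest, the order of the means was therefore wild type, Ccl2-/- and Ccr2-/- for Slfn1, Slfn2, Slfn3, Slfn4 and Slfn5, for which wild type and Ccl2-/- did not differ by the test, nor did Ccl2-/- and Ccr2-/- for Slfn3. It was wild type, Ccr2-/- and Ccl2-/- for Slfn8, and Ccl2-/-, wild type and Ccr2-/- for Slfn9, and for both no neighbours in the order differed by the test.

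The unequal course of the long forms can be read within an array, where a shift of the whole array cancels. The log2 value of Slfn5 minus that of Slfn8 was 1.06 ± 0.03 on the wild type arrays, 1.37 ± 0.10 on the Ccl2-/- arrays and -0.03 ± 0.11 on the Ccr2-/- arrays (SD, n = 3 each), so Slfn5 changed by 1.09 more downwards than Slfn8 in Ccr2-/- monocytes. The value of Slfn8 minus Slfn9 was 2.02 ± 0.03, 0.91 ± 0.25 and 1.98 ± 0.05 in the same order, and the Ccl2-/- arrays lay apart from both others. Each of these differences except that of Slfn8 minus Slfn9 between Ccr2-/- and wild type reached an exact two-sided permutation p = 0.1, which is the smallest that 3 against 3 arrays allow (adjusted p = 0.129 over the 9 differences computed for Slfn5, Slfn8 and Slfn9; 0.2 for the exception). The pairs were chosen after their values had been seen.

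The members were set beside the interferon pathway. Of 37 measured genes from a hand-written list of interferon-stimulated genes, 29 fell and none rose in Ccr2-/- monocytes (limma). Over all genes 8.38% fell and 4.91% rose, with a median log2 change of 0.01. The list had a median log2 change of -0.79. The 4 with the smallest p were Ifi44l (0.394-fold, limma adjusted p = 0.000386), Parp12, an antiviral ADP-ribosyltransferase (0.459-fold, 0.000579), and the 2′-5′-oligoadenylate synthetase-like genes Oasl1 (0.383-fold, 0.000625) and Oasl2 (0.368-fold, 0.000653). The log2 changes of all 7 members lay within the range of this list, from -1.64 (Ifit3) to 0.20 (Samd9l, adjusted p = 0.242). In Ccl2-/- monocytes none of these genes fell and 1 rose, Xaf1 (1.85-fold, adjusted p = 0.0413), and the count was 0 with quantile normalization, with centring, in the fit of 6 arrays or without any single wild type array. It was also 0 without Ccl2-/- replicate 2 or any single Ccr2-/- array, and 3 without Ccl2-/- replicate 3. Without adjustment 8 were lower and 2 higher, against 6.32% of all genes lower at an unadjusted p under 0.05. The share of all genes higher at that threshold was not computed. The list's median was -0.12, against 0.08 over all genes. Between Ccr2-/- and Ccl2-/- monocytes 19 were lower and none higher (limma, nor without adjustment), against 2.87% of all genes lower and 0.732% higher. The list's median was -0.70, against -0.08 over all genes. That 19 was 5 without Ccr2-/- replicate 1 or replicate 2, 11 without replicate 3, 8 with centring and 3 in the fit of 6 arrays. Xaf1, which promotes cell death, was 0.383-fold there (adjusted p = 0.00454).

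Upstream of these genes, 21 receptors, sensors and factors of the pathway were measured, of which 11 fell and 1 rose in Ccr2-/- monocytes. Over all genes 8.38% fell and 4.91% rose. The median log2 change was 0.01 over all genes and -0.33 over the 21. Among those that fell were Dhx58, an RNA sensor of the RIG-I family (0.436-fold, limma adjusted p = 0.000579), the nucleic acid receptor Tlr9 (0.554-fold, 0.0012), the interferon gamma receptor chain Ifngr2 (0.618-fold, 0.00121) and the RNA sensor Ifih1 (0.563-fold, 0.00125). Stat2 (0.67-fold, 0.00193) and Irf9 (0.73-fold, 0.00132), which act at the response element, and Irf7 (0.668-fold, 0.00258) fell too. The kinase Jak1 rose (1.29-fold, 0.00914), and the type I receptor chains were at 0.729-fold for Ifnar2 (0.00449) and 0.877-fold for Ifnar1 (0.0779). None of the 21 passed in Ccl2-/- monocytes (limma), where 5 were lower and 1 higher at an unadjusted p under 0.05. Over all genes 6.32% were lower there at that threshold, and the share higher was not computed. In the direct comparison 8 were lower, against 2.87% of all genes. That 8 was 0 without Ccr2-/- replicate 1 or replicate 2, with centring or in the fit of 6 arrays, 2 without Ccr2-/- replicate 3, 4 without Ccl2-/- replicate 3 and 5 without any single wild type array.

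**Figure D3:**
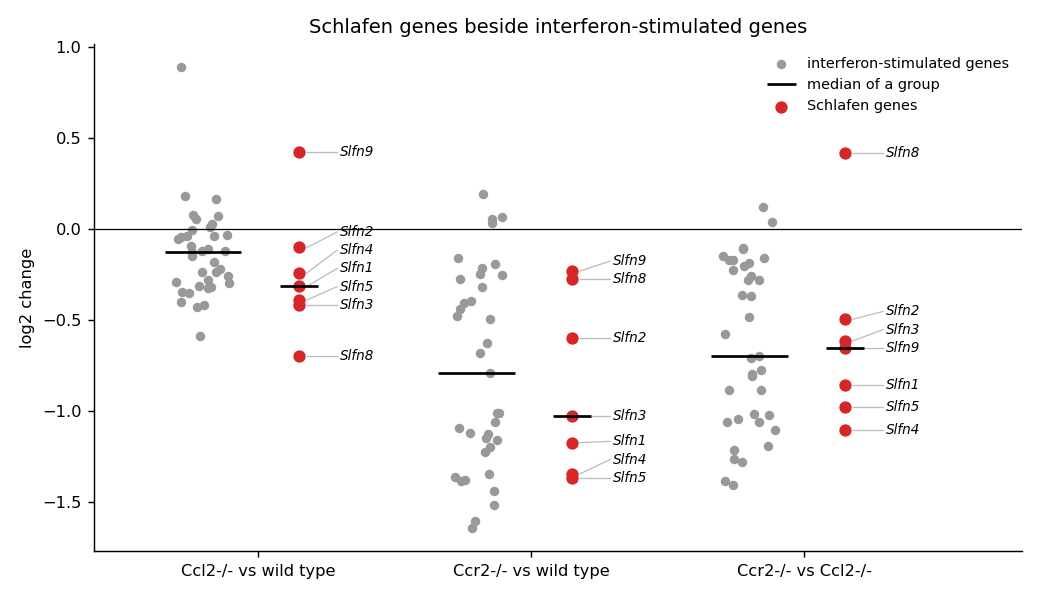
Log2 change of the 37 measured interferon-stimulated genes (grey) and of the 7 Schlafen members (red, named) in each comparison, with the median of each set as a bar. In Ccr2-/- against wild type the median is -0.79 for the list and -1.03 for the members, and Slfn8 and Slfn9 lie in its upper part.

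The list of interferon-stimulated genes averaged 10.99, 11.15 and 11.18 on the log2 scale on the wild type arrays, 10.85, 10.88 and 11.19 on the Ccl2-/- arrays and 10.38, 10.34 and 10.28 on the Ccr2-/- arrays. Replicate 3 was thus the highest of the Ccl2-/- arrays for the list as for the members. It also stood apart for marker lists given below. On Ccl2-/- replicates 1 to 3 the genes of Ly-6C high monocytes summed to 44115, 43224 and 49706 in linear intensity. The NK cell genes summed to 126636, 120316 and 105201. The part of these shifts in the levels of replicate 3 was not tested. The correlation with the average of the interferon-stimulated list over the 9 arrays (Pearson r, given as a description) includes the differences between genotypes. It was 0.95 to 0.98 for Slfn1, Slfn2, Slfn3, Slfn4 and Slfn5, 0.62 for Slfn9 and 0.16 for Slfn8. Over the deviations from the genotype means it was 0.91 for Slfn5 and Slfn8, 0.88 for Slfn3, 0.75 for Slfn9, 0.62 for Slfn1, 0.61 for Slfn4 and 0.17 for Slfn2. All points share the same 9 arrays. Genes that are lower in Ccr2-/- monocytes tend to share a high r over the 9 arrays, whatever list they are in.

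**Figure D4:**
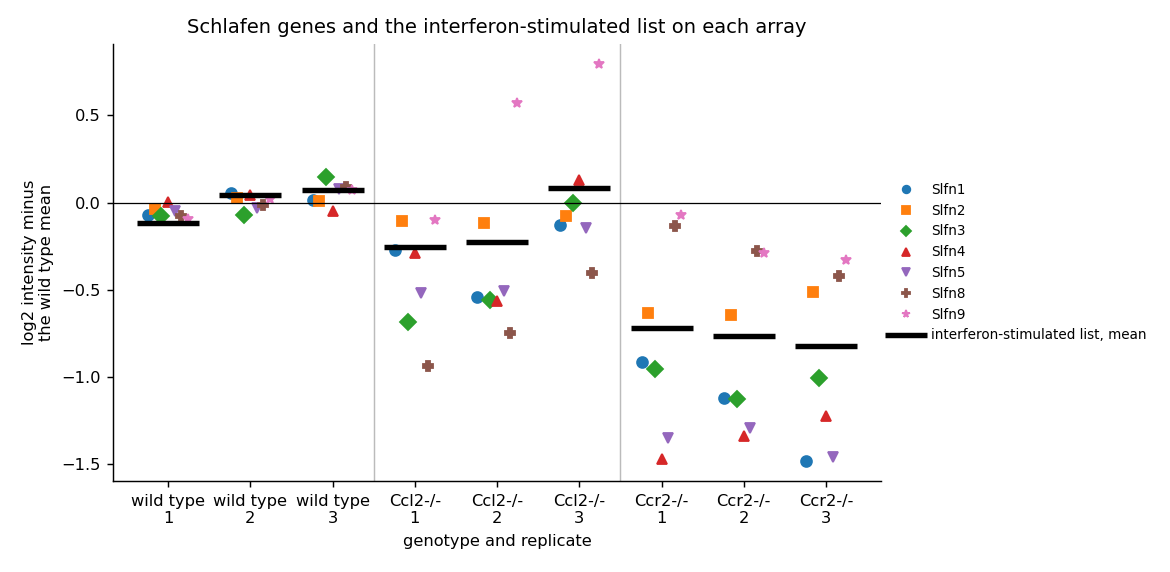
Log2 intensity of each member on each array minus its wild type mean (symbols, shifted sideways for legibility), with the average of 37 interferon-stimulated genes as a black bar. Ccl2-/- replicate 3 lies above replicates 1 and 2 for the list and for each member, and on the Ccr2-/- arrays Slfn2, Slfn8 and Slfn9 lie above the list's bar while Slfn1, Slfn3, Slfn4 and Slfn5 lie below it.

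The members were also set against each other. Across the 9 arrays the pairs within Slfn1, Slfn2, Slfn3, Slfn4 and Slfn5 had Pearson r of 0.89 to 0.97, which include the differences between genotypes. Slfn8 had r of 0.03 to 0.40 with them, Slfn9 had 0.47 to 0.52 with them, and the r of Slfn8 with Slfn9 was -0.22. Over the deviations from the genotype means Slfn8 had r of 0.89 with Slfn5, 0.89 with Slfn9 and 0.88 with Slfn3, while Slfn2 had r of -0.43 to 0.48 with the others.

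The genes with the most similar pattern over the 9 arrays were read off for each member, as a description of likeness. They were Mob3b, Tor3a and Snx30 for Slfn5 (r = 0.997, 0.997 and 0.996), Scpep1, Nfix and Lipe for Slfn2 (0.994, 0.99 and 0.989), Cd2ap, Ifi27l2a and Rab7b for Slfn4 (0.993, 0.993 and 0.991), Tpst1, Ids and Zfp991 for Slfn3 (0.99, 0.988 and 0.987) and Stat2, Tbc1d14 and Usp18 for Slfn1 (0.986, 0.983 and 0.98). Of these, Stat2 and Usp18 are in the interferon lists used here and Ifi27l2a is in the list of Ly-6C high monocytes. For Slfn8 the nearest were Mitd1, Odf2l and Dohh (0.958, 0.949 and 0.93), and for Slfn9 Myo9b, Orai3 and Madd (0.919, 0.908 and 0.894), lower values than for the other members. Over the deviations the nearest genes were Drosha for Slfn1, Plekha8 for Slfn2, the RNA sensor gene Ifih1 for Slfn3, Hsf2 for Slfn4, Frmd4a for Slfn5, Tbc1d5 for Slfn8 and Zfp882 for Slfn9 (0.968 to 0.991). All of these r values are over the same 9 arrays. They were picked as the highest among all measured genes outside the family, which by itself favours high values.

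The family lies in the same interval of chromosome 11 as the targeted Ccl2 gene, so the other genes of the interval were examined. Of 29 measured genes from Ccl7 to Ccl4 outside the family, 1 fell in Ccl2-/- monocytes (limma), the transcript E230016K23Rik (log2 change -0.89, adjusted p = 0.0102), and none rose, with 4 lower and 2 higher at an unadjusted p under 0.05. Over all genes 0.0853% fell, 0.0752% rose and 6.32% were lower at an unadjusted p under 0.05, and the share higher without adjustment was not computed. In Ccr2-/- monocytes, where this chromosome carries no targeted gene, 3 fell and 4 rose, against 8.38% and 4.91% of all genes. Those that fell were E230016K23Rik (-1.40, adjusted p = 0.00026) and the chemokines Ccl9 (-0.54, 0.00138) and Ccl6 (-0.57, 0.00132). Those that rose were Heatr9 (1.21, 0.00235), Ccl3 (0.45, 0.0104), Ccl5 (0.32, 0.0124) and Taf15 (0.40, 0.0145). Between Ccr2-/- and Ccl2-/- monocytes E230016K23Rik and Ccl9 were lower and 1700020L24Rik was higher, against 2.87% of all genes lower and 0.732% higher.

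All 7 of these calls in Ccr2-/- monocytes lay on the far side of the family from Ccl2, and the measured genes that border it, Unc45bos, Slfn5os and Ap2b1, passed in no comparison. Within the family the called genes did not form a single run: Slfn5 fell, then Slfn9, Slfn8 and Slfn10-ps did not pass, and then Slfn2, Slfn1, Slfn4 and Slfn3 fell. For Ccl2-/- monocytes the loss of Ccl2 and any DNA inherited with the targeted allele on the same chromosome cannot be told apart in this design.

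**Figure D5:**
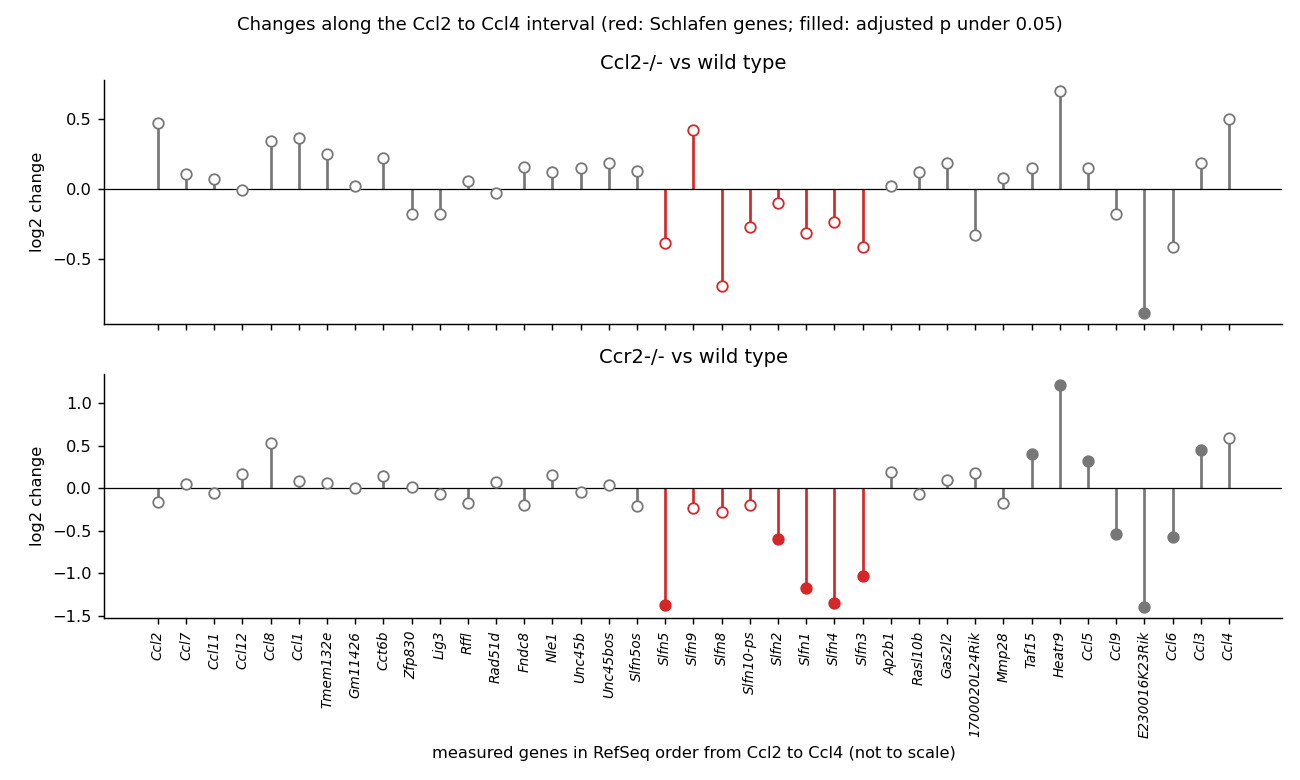
Log2 change of 39 measured genes in RefSeq order from Ccl2 to Ccl4 (equal spacing, not to scale) in Ccl2-/- and in Ccr2-/- monocytes against wild type; Schlafen genes are red and filled points have an adjusted p under 0.05. In Ccr2-/- monocytes Slfn9, Slfn8 and Slfn10-ps are open points between the filled Slfn5 and the filled Slfn2, Slfn1, Slfn4 and Slfn3.

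Levels of marker genes of several cell types also differed between the genotypes. They are bulk RNA levels, so a change in the makeup of the cell fraction cannot be told from a change in RNA per cell. By flow cytometry of blood, the study reported an equal proportion of monocytes in all genotypes of tumor-free mice. It reported fewer Ly-6C high monocytes in each knockout. Of 14 measured genes of the monocyte and macrophage list, 10 fell in Ccr2-/- monocytes, and their summed linear intensity was 92258 to 95848 in wild type, 86882 to 94203 in Ccl2-/- and 73658 to 79358 in Ccr2-/- monocytes. Of 11 measured genes of Ly-6C high monocytes, Ccr2 among them, 10 fell, with sums of 55117 to 67056, 43224 to 49706 and 25710 to 27466. Of 14 genes of Ly-6C low monocytes 2 rose and 1 fell, with sums of 66084 to 78425, 78903 to 85529 and 73144 to 77566. All 18 measured NK cell genes rose, with sums of 85329 to 92657, 105201 to 126636 and 141804 to 146344. Over all genes 8.38% fell and 4.91% rose in Ccr2-/- monocytes. No gene of these lists was at the floor, a linear intensity of 1, on any array, which does not show that each was detected. The part of these shifts in the lower Schlafen levels was not tested, nor was that of other cell types that can express Schlafen genes.

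Of the other marker lists, 1 of 11 T cell genes rose and none fell in Ccr2-/- monocytes, 1 of 9 B cell genes and 1 of 5 eosinophil genes rose, 3 of 15 neutrophil genes and 2 of 7 plasmacytoid dendritic cell genes fell, and none of 8 basophil and mast cell genes or 7 platelet genes passed (limma). The T cell genes summed to 9774 to 10226 in wild type and 7692 to 11101 in Ccl2-/- monocytes. On Ccr2-/- replicates 1 to 3 they summed to 18489, 13215 and 7651, so their level varied widely between pools. The part of T cells in the Schlafen levels was not tested. The lists overlap: Cd177 and Mmp8 of the fallen neutrophil genes are also in the Ly-6C high list, and Bst2 of the fallen plasmacytoid dendritic cell genes is also in the interferon-stimulated list. Ccl5 counts both among the NK cell genes that rose and among the chromosomal neighbours that rose. In Ccl2-/- monocytes the calls were Klrc1 of the NK cell list, Cd9 of the Ly-6C low list and Itgb3 of the platelet list, which rose, and Cd177, which is in both the neutrophil and the Ly-6C high list and fell. Ccr2 itself fell to 0.0797-fold in Ccr2-/- monocytes (adjusted p = 4.33e-06). The Ccl2 cluster read 8.98 ± 0.21 on the wild type arrays and 9.46 ± 0.36 on the Ccl2-/- arrays (SD, n = 3 each), which checks nothing because no source used here gives the place of its probes relative to the deletion.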

How the data were processed

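RNA of pooled blood monocytes was hybridised to Affymetrix Mouse Gene 1.0 ST arrays, 3 per genotype. The authors deposited intensity on a linear scale, made with dChip, for 35512 transcript clusters on each array. Normalization, expression model and version are not given in the sources used here. Replicates are separate pools of 5 mice, so p-values measure the spread between pools. The number of arrays limits the precision.

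Of the clusters, 21789 carry 1 gene symbol, 1621 several and 12102 none, and only the first kind was used. The cluster with the highest mean stood for each of 999 genes with several, which gave 19938 genes. Of the 21789, 21698 matched the RefSeq gene table by gene ID. Values under 1 were set to 1 and log2 was taken. A linear model of the 3 genotypes on all 9 arrays was fitted with limma 3.58.1 in R 4.3.3. P-values were adjusted by Benjamini and Hochberg's method over the 19938 genes of a comparison, and the procedure was tested on simulated data. The 14 gene lists were written by hand or taken by gene order (the Ccl2 interval). Members and lists were chosen with earlier results of these data known. Genes were named by rule: all members, the 4 smallest p in each direction of the interferon lists of which the main are printed, called neighbours, and the 3 genes of highest r. Genes named beyond it, such as Ifnar1, Ifnar2, Ifit3, Samd9l, Irf9, Klrc1, Cd9, Itgb3, Cd177, Mmp8 and Bst2, were chosen after their values were seen. Promoters matched for all 7 members, and the first window was used for Slfn8, which has 2 starts.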

Additional observations from a re-analysis of the deposited data

How the results depend on the processing

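The members' log2 changes and the counts of called members, interferon-stimulated genes, sensors and signalling genes, and neighbours were recomputed in 17 ways: with quantile normalization, with arrays centred on their medians, with an offset of 50, with an intensity trend, with the mean of a gene's clusters, without genes whose mean was at most 100, in a fit of the 6 arrays compared, with the replicate number as a block, and without each array in turn. In all 17, the number of members called in Ccr2-/- against wild type was 5. No member changed direction in any comparison: of 357 member values 330 stayed on their side of the threshold, 20 lost a call and 7 gained one. The cause was not tested.

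In Ccl2-/- against wild type the count of members was 1 with an intensity trend and 0 to 3 with single arrays left out. The count of interferon-stimulated genes (1) was 0 with quantile normalization, with centring, in the fit of 6 arrays and with the replicate block, and 0 to 3 with single arrays left out. For sensors and signalling genes (0) it was 2 with an intensity trend and 0 to 1 with arrays left out, and for neighbours (1) it was 2 with a trend or an offset of 50, 0 in the fit of 6 arrays and with the block, and 0 to 3 with arrays left out. In Ccr2-/- against wild type the neighbours (7) were 4 to 10 with arrays left out. In Ccr2-/- against Ccl2-/- the count of members (4) was 2 with centring, 0 in the fit of 6 arrays and 0 to 6 with arrays left out. Interferon-stimulated genes (19) were 12 with quantile normalization, 8 with centring, 3 in the fit of 6 arrays, 11 with the block and 5 to 21 with arrays left out. Sensors and signalling genes (8) were 0 with centring and in the fit of 6 arrays, 5 with the block and 0 to 10 with arrays left out. Neighbours (3) were 1 with quantile normalization or centring, 6 with a trend, 0 in the fit of 6 arrays and with the block, and 0 to 3 with arrays left out. The replicate numbers did not pair the arrays (correlation of deviations of same-numbered arrays -0.18 to 0.56), and with the replicate block the call of Slfn1 between the knockouts was lost (log2 change -0.86, adjusted p = 0.0711) while no other member's call changed. The alternatives for sensors and neighbours, and the within-array differences, were chosen after seeing the data.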
